A study of Mus musculus with 2 samples.

Results

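Amino acid transporters of 7 solute carrier families, SLC1, SLC3, SLC6, SLC7, SLC36, SLC38 and SLC43, were compared between pooled liver RNA of mice without Pnpla8 and of wild-type mice. The members were the 62 genes whose name on the array carries 1 of these family numbers, read by 78 of the 39429 non-control probes; 2 genes of these families were left out by the choice of members. Of the 62 genes, 59 encode transporters or their partner chains and 3 (Slc36a1os, Slc6a19os and Slc7a6os) are named for the strand opposite a transporter gene. The wild-type group was C57BL/6N mice with intact Pnpla8 (labelled WT) and the other group was C57BL/6N mice labelled Pnpla8-/-; no treatment is named for either. Each group was a single one-colour array of liver RNA pooled in equal amounts from 5 animals. The age is 6 weeks in the sample labels and 8 weeks in the series design. With 1 array per genotype there was no replicate check and no test, and genotype, pool and array could not be told apart. The labels do not say how the deletion was made or which cells lack the gene.

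Amino acids cross cell membranes on carriers that differ in substrate and in driving force. The SLC1, SLC6 and most SLC38 carriers move amino acids together with sodium and so can concentrate them in the cell, many SLC7 light chains exchange one amino acid for another and need an SLC3 heavy chain to reach the membrane, SLC36 carriers use protons, and Slc43a1 and Slc43a2 let large neutral amino acids pass without a coupled ion. Liver takes up alanine, glutamine and arginine from portal blood for glucose and urea production, and hepatocytes also release glutamine and large neutral amino acids.

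Below, a signal is the processed intensity of an array spot. A log2 ratio is knockout over wild type after each array's 75th percentile was subtracted on the log2 scale, so it is 0 where the genes hold the same place on both arrays. A gene counts as measured when at least 1 of its probes passed the scanner software's test against background (IsWellAboveBG) on each array, and its ratio is the median over such probes. Over all genes, technical spread within the arrays was small, with a median SD of the log2 ratio of 0.05 between spots of 1 probe and 0.10 between different probes of 1 gene. Among the 7 members with several measured probes the SD between probes was larger, with a median of 0.17 and a highest value of 0.50. None of these values describes the spread between animals.

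The Pnpla8 probe had a signal of 144 in the wild-type pool and 4.45 in the knockout pool, where it was not well above background, and was at least 6.81-fold lower there. The deleted part of the gene is not stated, so this probe may lie outside it. Of 43020 non-control spots, 70.1% (wild type) and 65.6% (knockout) stood well above background, and 0 were saturated.

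The probes behind the most different members, and the 2 probes of Slc7a5 that gave opposite signs, are shown because each ratio rests on what its probe binds. Each line gives the first 30 bases of a 60-base probe from its 5′ end. Positions are those of the whole probe in mm9, the build named in the array file's header. Exons and untranslated regions of that build were not analysed here.
Slc43a1, chr2:84703578-84703637, plus strand: tgcacacatatatgttacgcacatgcatat
Slc7a2, chr8:42002869-42002928, plus strand: ttttttactgtggacaaaaaagacacagat
Slc38a5, chrX:7857241-7857300, plus strand: cctagatgaagctgttagggttaccctggc
Slc7a8, chr14:55341137-55341196, minus strand: tatttcttttggattttttaatgtatggcg
Slc7a5, chr8:124405136-124405195, minus strand: gtggttataatgtcttttactattgtatta
Slc7a5, chr8:124430996-124431055, minus strand: tagtcttcgccacctacttgctcaagccgg

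The transporter genes differed in both directions. Slc43a1 and Slc7a2 were more than 2-fold higher in the knockout pool and Slc38a5 and Slc7a8 more than 2-fold lower. All other measured members were within 2-fold. Of the 62 genes, 34 were measured on both arrays, 1 passed the background test in the knockout pool only, 3 in the wild-type pool only, and 21 on neither array; the remaining 3 had an outlier mark on their only spot. Among the 34, 2 (5.88%) passed 2-fold upward, against 1.30% of all 19394 measured genes. Another 2 (5.88%) passed it downward, against 1.85%. At 1.5-fold the counts were 5 higher (background 4.42%) and 5 lower (background 6.00%), or 14.7% of the measured members each. These are counts of a few genes with no test, and members that share a substrate or a probe design are not independent.

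**Figure D1:**
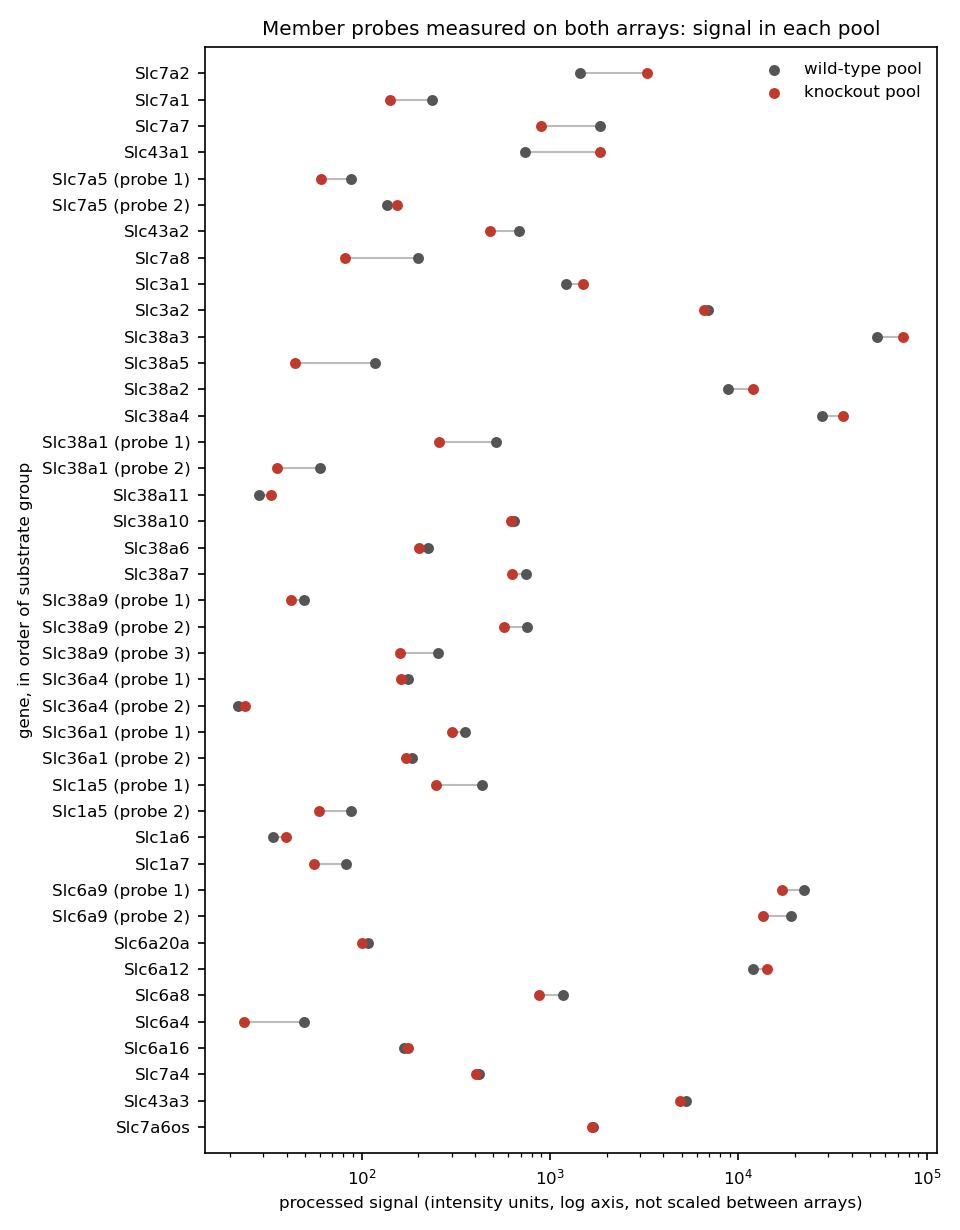
Processed signal (log axis, intensity units, not scaled between arrays) of the probes of 33 members measured on both arrays, with the wild-type pool in grey and the knockout pool in red; genes are in order of substrate group. The longest distances are those of Slc38a5 (118 and 44.3), Slc43a1 (738 and 1834), Slc7a8 and Slc7a2, while Slc3a2 and Slc7a6os nearly coincide.

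The middle of the distribution lay near that of the array. The 33 measured transporter genes had a median log2 ratio of 0.10 and 20 of them were above 0, while all measured genes had a median of 0.04 with 56.8% above 0. The spread was wider among the transporters, with an SD of 0.61 against 0.39 over all genes and an interquartile range of 0.74 against 0.35. Of all 34 measured members 21 were above 0, but 10 were without scaling and 14 on the scale of the spike-in controls, which moved the median of all genes by -0.25 and -0.16. Slc3a2, Slc36a1, Slc38a6, Slc38a7, Slc43a3, Slc6a20a and Slc7a5 had a ratio below 0 under both, and Slc36a4, Slc38a10, Slc7a4 and Slc7a6os without scaling, so their direction depends on the scale. The 10 members at least 1.5-fold apart kept their sign under every alternative that measured them. These are descriptions of 2 arrays, and no list was compared by a test.

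**Figure D2:**
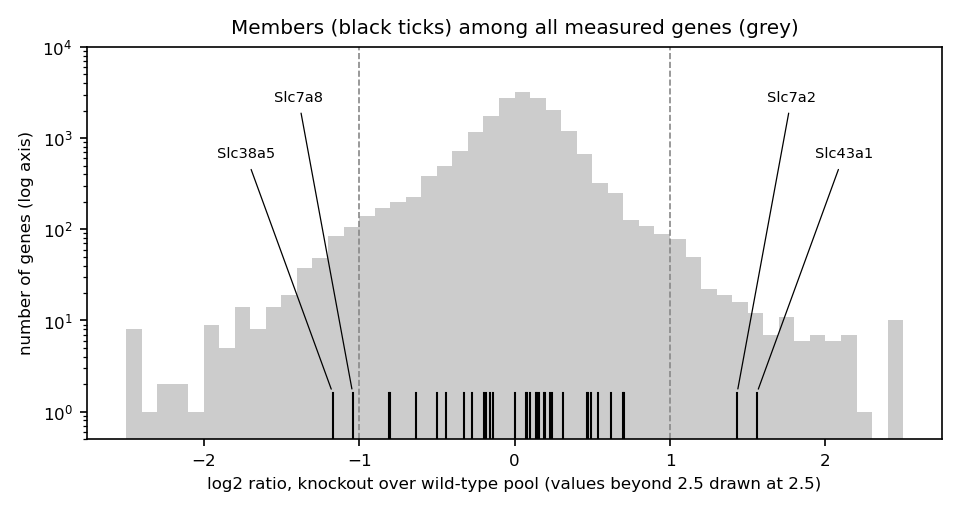
Number of genes (log axis) at each log2 ratio of knockout over wild type for all 19394 measured genes (grey), with the 34 measured members as black ticks and dashed lines at 2-fold. The 2 ticks right of the upper line are Slc43a1 and Slc7a2, the 2 left of the lower line Slc38a5 and Slc7a8.

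Arginine and lysine transporters went opposite ways. Slc7a2, the cationic amino acid transporter known for its liver form, gave 1438 in the wild-type pool and 3272 in the knockout pool. Its log2 ratio of 1.43 (2.70-fold) was exceeded by 0.39% of measured genes. Slc7a1, the widely expressed cationic transporter, had 237 and 142, a log2 ratio of -0.50. The signal of Slc7a2 was therefore the larger in the knockout pool and that of Slc7a1 the larger in the wild type. The log2 ratios of the pair were 1.93 apart, a distance that no constant scaling can alter and that was 1.67 at its lowest over the alternatives, with the normexp background. Slc7a3, another cationic carrier, was not well above background on either array.

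Large neutral amino acids are carried by the facilitators Slc43a1 and Slc43a2 and by SLC7 light chains that exchange them. Slc43a1, a facilitator of leucine, isoleucine, phenylalanine and methionine that is abundant in liver, had the highest ratio of all members. Its signal was 738 in the wild-type pool and 1834 in the knockout pool, 2.95-fold higher with a log2 ratio of 1.56, and 0.31% of measured genes lay above it. Feature Extraction's own error for these spots was 73.9 and 183. Slc43a2, its close relative, had 685 and 479 (log2 ratio -0.27), and Slc43a3, a purine nucleobase carrier of the same family, 5242 and 4896 (log2 ratio 0.15). Only the first of the 3 family members lay past 2-fold.

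The exchanger Slc7a8 was lower in the knockout pool. Its probe was spotted 10 times on each array, so this is the one measured member with repeated spots. In the wild-type pool the lowest spot was 190.5, the median 198 and the highest 214, with a mean of 199.9 ± 8.15 (SD over 10 spots). In the knockout pool the lowest was 70.1, the median 82.5 and the highest 91.6, with a mean of 82.0 ± 5.38. The spots of the 2 pools did not overlap. The mean log2 ratio was -1.04 ± 0.13 (SD over 10 spots, 2.06-fold lower). Single spots ran from -1.32 to -0.82 and 6 of the 10 were at least 2-fold lower, so this gene sits at the threshold. With median scaling (-0.98), quantile scaling (-0.97) or the normexp background (-0.59) it was within 2-fold.

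**Figure D3:**
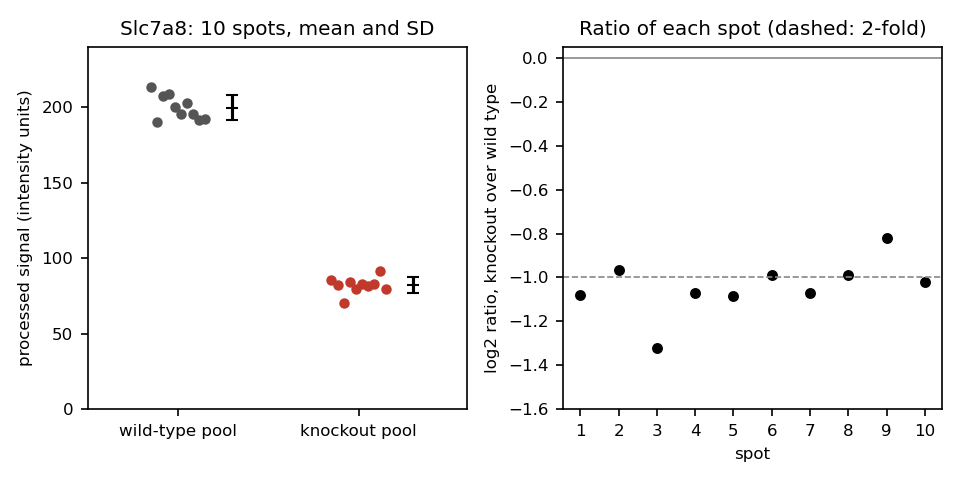
Left, processed signal (intensity units) of the 10 Slc7a8 spots in each pool, with mean and SD as a bar beside the points; right, the log2 ratio of each spot, with a dashed line at 2-fold. All wild-type spots lie above all knockout spots, and the ratios lie on both sides of the dashed line, 6 of them at or below it.

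Slc7a5, the exchanger that supplies dividing cells with leucine, was read by 2 probes that disagreed. The probe at the lower coordinate had 87.5 in the wild-type pool and 60.7 in the knockout pool, a log2 ratio of -0.28. The probe 25.8 kb away had 136 and 154, a log2 ratio of 0.43. The SD between them, 0.50, was larger than in 95.5% of genes with several measured probes, so the gene's median ratio of 0.07 describes neither probe. Of the 7 members with several measured probes, 5 had all on the same side, and the other two were Slc7a5 and Slc38a9.

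The heavy chains, which carry SLC7 light chains to the membrane, were both within 2-fold. Slc3a2, the partner of Slc7a5, Slc7a6, Slc7a7, Slc7a8, Slc7a10 and Slc7a11, had 6923 and 6528, a log2 ratio of 0.16. Slc3a1, the partner of Slc7a9 and Slc7a13, had 1218 and 1491, a log2 ratio of 0.54. The direction of Slc3a2 is not settled, since it was -0.08 without scaling and below 0 with the spike-in controls as the scale. Slc7a8 and Slc7a7 were lower beside this nearly equal partner. The partners of Slc3a1, both cystine carriers of kidney and gut epithelium, were not well above background, nor was Slc7a11, the cystine and glutamate exchanger.

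Slc7a7, a y+L light chain that exports arginine and lysine against neutral amino acids and is also known in macrophages, had 1852 in the wild-type pool and 891 in the knockout pool. Its log2 ratio was -0.81, 1.75-fold lower, and 3.32% of measured genes lay below it. Slc7a6, the other y+L light chain, was not well above background. The gene opposite it, Slc7a6os, had 1686 and 1664 (log2 ratio 0.23). Slc7a4, an orphan member, had 0.19 with its measured probe.

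Glutamine carriers of the SLC38 family showed the same kind of contrast within both of their transport systems. System N carriers exchange sodium for protons and can run in either direction. Slc38a3, the system N carrier typical of hepatocytes, had 54533 and 75105, a log2 ratio of 0.71 (1.63-fold higher). Slc38a5, the second system N carrier, had 118 and 44.3, a log2 ratio of -1.17 (2.25-fold lower), and 0.99% of genes lay below it. Their log2 ratios were 1.88 apart, or 1.14 with the normexp background. That background left Slc38a5 at -0.45, within 2-fold. A normexp signal has 50 units added, which by itself draws the ratio of so dim a probe toward 0.

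System A carriers take up small neutral amino acids with sodium and are induced by hormones and by amino acid lack. Slc38a2, the widely induced member, had 8782 and 12001, a log2 ratio of 0.70 (1.62-fold higher). Slc38a4, known for its high level in liver, had 27719 and 35954, a log2 ratio of 0.62 (1.54-fold higher). Slc38a1, found in brain and in dividing cells, was lower with both measured probes, 516 against 259 (-0.75) and 60.2 against 35.5 (-0.51), and the remaining probe was not well above background. Its gene ratio was -0.63, 1.55-fold lower. The log2 ratio of Slc38a2 stood 1.33 above that of Slc38a1, and that of Slc38a4 1.25 above it. In both systems the higher carriers were brighter than the lower one, and over all measured genes the 2-fold shares varied with signal. In signal decile 10, the brightest, which holds Slc38a3 and Slc38a4, 2.37% of genes were at least 2-fold higher and 0.41% lower. The shares were 0.77% and 3.46% in decile 3 (Slc38a1), 1.91% and 2.68% in decile 2 (Slc38a5) and 3.25% and 1.34% in decile 1. The part of signal level in these contrasts was not tested.

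**Figure D4:**
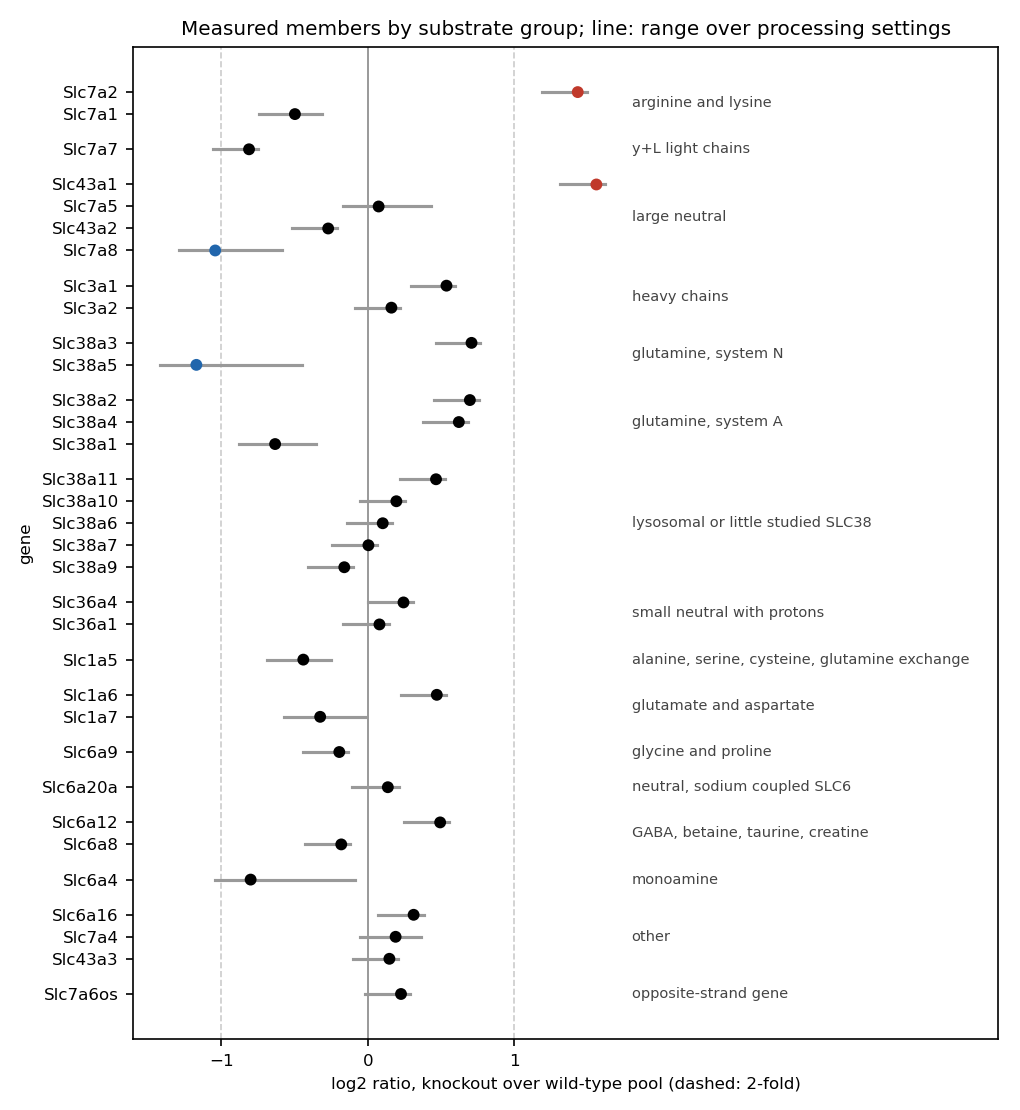
Log2 ratio of knockout over wild type for 33 measured members, grouped by substrate, with red and blue points at least 2-fold higher or lower and dashed lines at 2-fold; grey lines span the values over the processing settings tried. Members on opposite sides of 0 appear within the arginine and lysine, large neutral, system N and system A groups. They also appear within the glutamate and aspartate, the lysosomal or little studied SLC38, and the GABA, betaine, taurine and creatine groups. The lines of Slc7a2 and Slc43a1 stay right of the upper dashed line.

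The other SLC38 members were within 1.5-fold. Slc38a7 and Slc38a9 are lysosomal, and Slc38a9 signals lysosomal arginine to mTORC1. Slc38a7 had a log2 ratio of 0.00, Slc38a9 -0.16 (3 probes from -0.43 to 0.03), Slc38a6 0.10, Slc38a10 0.19 and Slc38a11 0.46. The measured probe of Slc38a11 was dim, at 28.4 (wild type) and 33.0 (knockout). Its ratio lay near the median of 0.54 of the negative control spots. Slc38a8 was not well above background. Of the SLC36 proton-coupled carriers of small neutral amino acids, Slc36a1, a lysosomal carrier, had 0.08 and Slc36a4 0.24. Slc36a2 had 15.1 in the wild-type pool and 19.5 in the knockout pool and was well above background in the knockout only, 1.53-fold higher. For a gene above background on 1 array only, a bound takes the dim side no lower than a floor. That floor is the faintest signal that still passed the background test on that array. The wild-type signal of Slc36a2 was above its floor of 14.7, so 1.53-fold is the observed ratio. It says little so close to the floor.

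Among SLC1 carriers, Slc1a4, a sodium-dependent exchanger of alanine, serine and cysteine, had 3214 and 5349, a log2 ratio of 0.98. It is not among the 34, because its only spot had an outlier mark for the local background on the knockout array. With marked spots kept, only Slc43a1 and Slc7a2 had higher ratios among the members well above background on both arrays. Slc1a5, the glutamine exchanger, had 435 and 247 with the first probe and 87.4 and 59.5 with the second, log2 ratios of -0.57 and -0.31. The excitatory amino acid transporters were dim. Slc1a6 had 34.0 and 39.8 (log2 ratio 0.47) and Slc1a7 had 83.0 and 55.9 (-0.33). Slc1a1 was above background on 5 of 9 usable wild-type spots and 0 of 9 knockout spots, at means of 17.0 and 10.7, too dim for a bound. Slc1a3 was not well above background.

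The SLC6 family carries neurotransmitters, osmolytes and neutral amino acids. Slc6a12, which takes up betaine and GABA, had 11986 and 14232, a log2 ratio of 0.49. Slc6a13, a GABA and taurine carrier of hepatocytes, had 44984 and 30346 (log2 ratio -0.32), again on a spot with a background outlier mark on the knockout array. Slc6a9, a glycine transporter, had 22295 and 17059 with the first probe and 19130 and 13579 with the second, which gave -0.14 and -0.25. Slc6a8, the creatine transporter, had 1173 and 873 (-0.18). All of these were within 1.5-fold.

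The serotonin transporter Slc6a4 was the single SLC6 member past 1.5-fold among those measured on both arrays, with 49.1 in the wild-type pool and 23.8 in the knockout pool. Its log2 ratio was -0.80, and -0.09 with the normexp background, which draws dim probes toward 0. Slc6a16 had 0.31 and Slc6a20a 0.14. The neutral amino acid carrier Slc6a18 had 33.4 and 3.82 with the mapped probe, with a bound of 1.57-fold lower, while its other probe was not well above background on either array. Slc6a7 was above background in the wild type only, with a bound of at least 1.09-fold lower. Slc6a14 had 2.92 in the wild-type pool, where its spot had a background outlier mark, and 22.9 in the knockout pool, where it was well above background.

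The 19 transporter genes not well above background on either array were Slc1a3, Slc6a2, Slc6a3, Slc6a11, Slc6a15, Slc6a17, Slc6a19, Slc6a20b, Slc7a3, Slc7a6, Slc7a9, Slc7a10, Slc7a11, Slc7a12, Slc7a13, Slc7a14, Slc7a15, Slc36a3 and Slc38a8. Most are textbook carriers of brain, kidney or gut. Member probes in that state had median signals of 4.55 (wild type) and 4.80 (knockout), and their median scaled log2 ratio of 0.50 was near the 0.54 of the negative control spots. By family, 10 of 11 SLC38 genes were measured, all 3 of SLC43, both of SLC3, 6 of 15 in SLC7 and 7 of 18 in SLC6.

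Some members lie side by side in the genome, and neighbours did not share their ratio in every case. The probes of Slc38a1 and Slc38a2 on chromosome 15 are 112 kb apart and had log2 ratios of -0.63 and 0.70, while Slc38a4, 307 kb further on, had 0.62. Slc43a1 and Slc43a3 on chromosome 2 are 94.4 kb apart, with 1.56 and 0.15. Slc7a7 and Slc7a8 on chromosome 14 are 352 kb apart and were both lower, at -0.81 and -1.04.

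Amino acid lack raises several of these genes through an element bound by C/EBP and ATF proteins. RefSeq promoters (GRCm38.p6, 250 bases before to 50 after the start site) were searched for TGATGNAA on both strands. A promoter was held for 45 of the 62 genes, 25 of them measured, and those without one included Slc7a2, Slc38a1, Slc38a3, Slc1a5, Slc7a5, Slc6a8, Slc7a4 and Slc43a3. The motif was in 4 of 65 member promoters (6.15%) and in 3.97% of all 32851 promoters. Overlapping promoters of Slc7a7 share a motif site, which is counted in both of them. The motif lay in 3 genes, whose promoters are shown because they hold it. Slc7a7 was lower, Slc7a11 was not detected, and Slc1a4 was higher on a spot with an outlier mark. Sequence outside these promoters was not searched. Capitals mark the motif, read 5′ to 3′ on the gene's strand, which is minus in all 3.
Slc1a4, chr11:20332710-20332743: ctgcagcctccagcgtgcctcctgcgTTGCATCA
Slc7a11, chr3:50443627-50443705: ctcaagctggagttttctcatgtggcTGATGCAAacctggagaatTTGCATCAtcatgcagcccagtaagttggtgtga
Slc7a7, chr14:54417938-54418111: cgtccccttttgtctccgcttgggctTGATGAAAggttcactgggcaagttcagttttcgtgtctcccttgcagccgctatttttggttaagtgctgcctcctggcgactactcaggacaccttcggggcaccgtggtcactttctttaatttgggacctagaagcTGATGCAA

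The Slc7a11 promoter held the motif on both strands, between 66 and 40 bases before the start site, and the Slc1a4 motif spans the start site. A match describes these letters only. Of the genes that hold it only Slc7a7 is among the measured members, so a shared direction could not be read. Genes of the amino acid response itself were mixed. Of 17 listed, 16 were measured, with a median of -0.17, 1 past 2-fold upward and 3 past it downward. Asns, asparagine synthetase, had 353 and 91.2 (3.27-fold lower) and Psat1, of serine synthesis, 336 and 72.5 (3.91-fold lower). The stress gene Nupr1 was 2.73-fold lower and the lipoprotein receptor Vldlr 2.66-fold higher. Atf4, the factor that drives the response, had an RNA log2 ratio of -0.01, and its protein was not measured.

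Carriers outside these families were also mixed. Of 14 listed, 9 were measured, with a median of 0.02. Slc16a10, which passes aromatic amino acids out of cells, was 2.02-fold higher as the median of 3 probes. Its probes ran from 174 to 1939 in the wild-type pool and from 180 to 3308 in the knockout pool, so they did not share the same ratio. Slc15a3, a lysosomal peptide and histidine transporter of immune cells, was 2.40-fold lower. The amino acid sensing machinery at the lysosome, 29 of 31 genes measured, had a median of 0.06. It ran from -0.58 (Castor2) to 0.55 (Nprl3), and 0 of the 29 were at least 1.5-fold apart.

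Macrophage, dividing-cell, lymphocyte, neutrophil and stellate markers that were measured all had ratios below 0, beside the lower transporters, while endothelial and cholangiocyte markers were mixed. All 8 Kupffer cell and macrophage markers were measured and all were at least 1.5-fold lower, 4 of them at least 2-fold, with a median of -0.97. Their summed signal, in units of each array's 75th percentile, went from 80.9 (wild type) to 37.7 (knockout). The 6 markers of dividing cells had a median of -1.23 with 5 at least 2-fold lower, and their sum was 1.93 (wild type) against 0.77. The 8 lymphocyte and NK cell markers had a median of -0.77 with sums of 2.14 and 1.56, and 4 of 5 neutrophil markers were measured with a median of -1.15 and sums of 1.31 and 0.44. Stellate markers had a median of -0.48 and sums of 7.11 and 4.76. Endothelial markers had a median of -0.25 and sums of 40.4 and 36.1, with 2 of 6 above 0 (Stab2 0.03 and Pecam1 0.02). Cholangiocyte markers had a median of -0.11 and sums of 0.95 and 0.89, with 1 of 5 above 0 (Sox9 0.20) and 0 of 5 past 1.5-fold.

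Hepatocyte markers were present at high signal, with Alb at 393769 and 392982, and had a median of 0.24 over the 5 of 8 that were measured. Of these 5, 4 were above 0, with Cps1 the highest at 0.99, and Apoa1 was -0.15. The processed signals of Alb were nearly equal, so its ratio of 0.24 comes from the scaling. The sum of the markers, on the same scale, was 619 (wild type) against 721 and also depends on the scaling. In pooled tissue, fewer cells of a type and less RNA per cell cannot be told apart. The part of these other cells in the lower signals of Slc7a7, Slc7a8, Slc38a1, Slc38a5, Slc6a4, Slc1a5 and Slc7a1 was not tested.

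**Figure D5:**
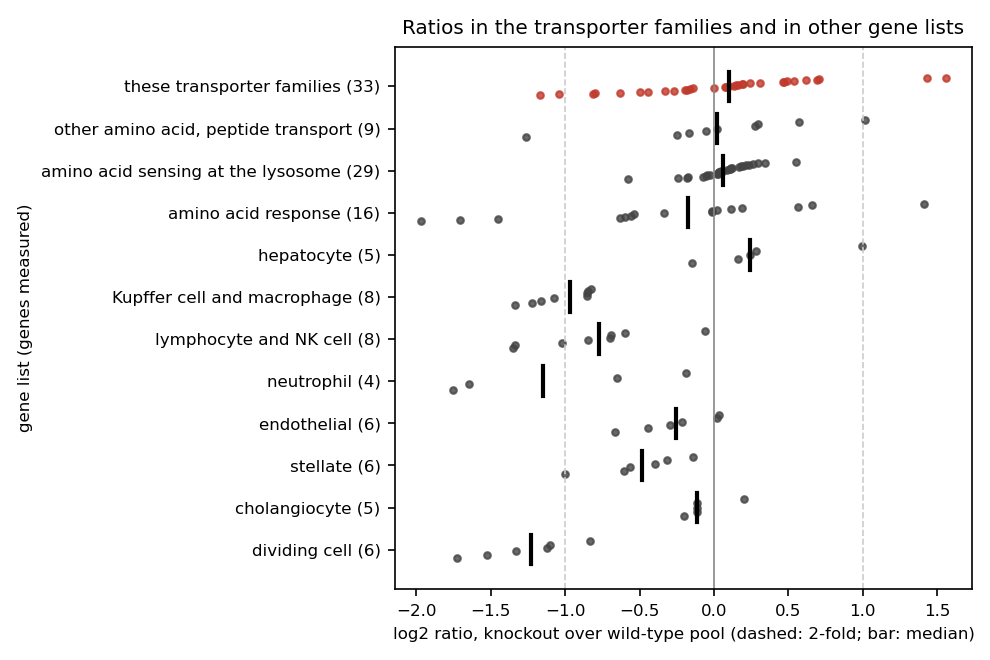
Log2 ratios of knockout over wild type for the measured transporter genes (red), other pathway lists and cell marker lists (grey), with each list's median as a bar, the number measured in brackets and dashed lines at 2-fold. The transporters spread from -1.17 to 1.56 around a median of 0.10, while all 6 dividing-cell markers and all 8 macrophage markers lie below 0.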

How the data were processed

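Gene expression was measured on 2 one-colour Agilent arrays of pooled mouse liver RNA, grouped by the genotype label. Per the labels, 200 ng of RNeasy-purified RNA was labelled with Cy3. The submitters' processing notes name Agilent Feature Extraction 11.5.1.1. The deposited scanner files hold background-subtracted intensity on a linear scale; each column of the deposited value table is that intensity divided by a constant (1207 and 1019), with 0 other sample columns unused.

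Processed signals were put on the log2 scale here and centred, array by array, on the 75th percentile of the non-control spots. Control spots and spots with an outlier mark on either array were left out (896 marked in the wild type, 913 in the knockout). Spots of a probe were averaged, and probes of a gene summarised by their median. Background counts used gene names updated through RefSeq (28330 probes by accession, 2378 by name, 8721 kept). Thresholds were 2-fold and 1.5-fold. Values are given in full for members at least 1.5-fold apart, heavy chains with their measured partners, and members whose probes disagree. The members, lists and thresholds were chosen with earlier results of these data known. Values of 1 measured member, which stays in the counts, are not reported here. The steps were tested on simulated data. Alternatives were other scalings, normexp background correction (offset 50), the value table, other filters and other probe summaries. Tools were Python 3.11.15, pandas 2.3.3, numpy 2.4.6, statsmodels 0.14.6, R 4.3.3 and limma 3.58.1. The number of arrays limits the precision.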

Additional observations from a re-analysis of the deposited data

How the results depend on the processing

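Under 12 alternatives to the scaling, background, filters and probe summaries, Slc43a1 and Slc7a2 were at least 2-fold higher each time. Their log2 ratios ran from 1.31 to 1.62 and from 1.19 to 1.49. Each gene rests on 1 spot of 1 probe, so the other filters and probe summaries could not change its ratio. The value table holds the same intensities on nearly the same scale. Only the other scalings and the normexp background could move these ratios. The number of members at least 2-fold lower, 2 of 34 in the report beside 359 of all 19394 genes, depended on the setting. It was 1 with median or quantile scaling (295 and 324 of all genes) and 0 with the normexp background (124). Without scaling it was 4 (746 of all genes), with Slc6a4 and Slc7a7 added. Without the filter on dim probes it was 4 of 59 (1215 of 30259 genes), with Slc1a3 and Slc6a18 added. Among probes above the median signal it was 0 of 27 (215 of 14753 genes), but Slc38a5 and Slc7a8 were not measured there. At a 1.5-fold threshold 5 members were higher and 5 lower (14.7% each, against 4.42% and 6.00% of all genes), and at 4-fold 0 and 0. The median over measured members, 0.12, was -0.13 without scaling and -0.045 on the spike-in scale; all genes moved with it, by -0.25 and -0.16. Over all genes the share of 2-fold differences that were higher was 41.3% in the report, 13.3% without scaling, 18.9% on the spike-in scale and 51.4% with normexp. Of the 34 measured members, 22 kept their sign under every alternative. Depth of signal limits Slc38a5, Slc6a4 and the genes with bounds. No replicate could be left out. No paired analysis was possible because each group has 1 array.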
